A study of Sus scrofa with 6 samples.

Results

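Most of the genes described here make, bind or break down hyaluronan or cleave the hyaluronan-binding proteoglycan versican, and 1 is a relative of the versican-cleaving proteases. They are 10 genes chosen by name: the synthase HAS2, the hyaluronidases HYAL1 and HYAL2, the receptor CD44, the versican gene VCAN, the proteases ADAMTS1, ADAMTS4, ADAMTS5 and ADAMTS9, and the ADAMTS-like gene ADAMTSL4. Of the 10, 9 are in the deposited table of 13288 genes, and HAS2 is not listed under its symbol or under its identifier ENSSSCG00000005992. RNA was sequenced from the ventricles of 3 sham and 3 DAC Tibetan minipigs, male animals of 25 to 30 kg at purchase whose age is not given in the sources used here. In the DAC group the descending aorta was narrowed with sutures, and the sham group had a thoracotomy without constriction. Hearts of both groups were collected 12 weeks after surgery. Each group began with 5 minipigs, of which 1 was excluded, and the sources used here do not say how the 3 sequenced minipigs were chosen. Samples are numbered as in their labels, S1 to S6, and are here called sham replicates 1 to 3 and DAC replicates 4 to 6.

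Hyaluronan is a long unbranched sugar chain that is made at the plasma membrane and pushed out into the matrix. HYAL2, anchored at the cell surface, cuts it into shorter pieces, and HYAL1 degrades these further in lysosomes. Versican binds hyaluronan at its N-terminal end and carries chondroitin sulfate chains, and CD44 holds hyaluronan at the cell surface. ADAMTS1, ADAMTS4, ADAMTS5 and ADAMTS9 are secreted zinc proteases that cleave versican, while ADAMTSL4 resembles them without having a protease domain and binds fibrillin microfibrils. In the heart, a matrix rich in hyaluronan and versican is known from the developing valves and from tissue under repair.

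Values are FPKM (fragments scaled by transcript length and by sequencing depth), and the sum over all genes was between 281377 and 308771 in the 6 samples. How many reads each value rests on is unknown, so the spread between minipigs is the only error given. Differences are in mean log2(FPKM + 1) between DAC and sham, which understates the change of genes with low FPKM. They were tested with limma on the 11029 genes that reached 1 FPKM in 3 or more samples, which include all 9 listed members. A gene was called differentially expressed (DEG) at an unadjusted P under 0.05, the kind of threshold used in the study. By this rule 8.51% of the tested genes were DEGs, 358 higher and 581 lower in the DAC group (502 and 408 after removal of the mitochondrially encoded genes and rescaling). No gene had an adjusted P under 0.05, and the smallest was 0.106. The share of summed FPKM from mitochondrially encoded genes was 32.8% in DAC replicate 5, and elsewhere it ranged from 24.0% to 27.2%.

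The cell-surface hyaluronidase HYAL2 was lower, and the hyaluronan receptor CD44 was higher, in every DAC minipig than in every sham minipig. These were the 2 DEGs among the 9 members (22.2% of them), 1 in each direction, against 8.51% of all tested genes in either direction. Of all tested genes, 3.25% were DEGs with a higher level and 5.27% with a lower level in the DAC group. The groups did not overlap in these 2 of the 9 members (22.2%), against 14.9% of all tested genes. The other 7 members had P between 0.0677 and 0.989, and the groups overlapped in each of them. The mean log2 value was higher in the DAC group for 2 members and lower for 7, although the sign turned for HYAL1, VCAN, ADAMTS1, ADAMTS9 and ADAMTSL4 when 1 of the minipigs was left out. The median difference was -0.14 over the 9 members and -0.016 over all tested genes. Since whole ventricular tissue was sequenced, fewer cells of a type and less RNA per cell cannot be told apart in any of these values.

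**Figure D1:**
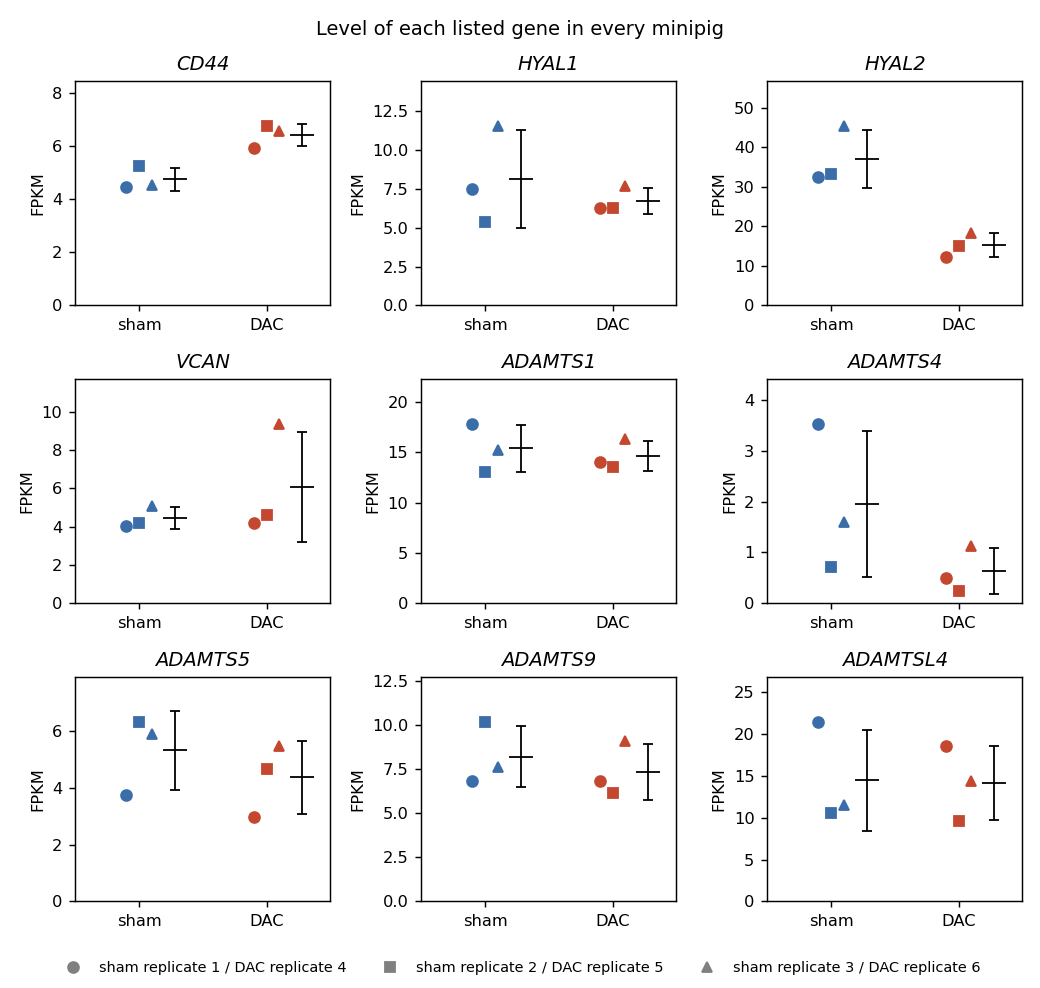
FPKM of the 9 listed genes in each minipig (vertical axes, starting at 0), with sham in blue and DAC in red; the bar beside each group is the mean with its SD (n = 3), and the marker shapes name the replicates without pairing them. HYAL2 was between 32.4 and 45.5 FPKM in the sham and between 12.3 and 18.4 FPKM in the DAC minipigs, and CD44 between 4.46 and 5.25 FPKM and between 5.94 and 6.77 FPKM, while the groups overlap in the other 7 genes.

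HYAL2 (ENSSSCG00000011405) lies on chromosome 13 from 32805223 to 32815335 of susScr11, the build named in the submitters' processing notes. Its level was 32.4, 33.3 and 45.5 FPKM in sham replicates 1, 2 and 3. In DAC replicates 4, 5 and 6 it was 12.3, 15.1 and 18.4 FPKM. The highest DAC value was thus well under the lowest sham value. The group means were 37.1 ± 7.28 FPKM for sham and 15.3 ± 3.05 FPKM for DAC (SD, n = 3 each), 2.42-fold lower in DAC. The log2 difference was -1.22 (standard error 0.19, 95% interval -1.66 to -0.79), with P = 0.000285 and adjusted P = 0.261 from limma, and an exact two-sided permutation P of 0.10, the smallest that 3 minipigs against 3 allow. By P, HYAL2 ranked 12 among the 11029 tested genes, and 21 of them, HYAL2 included, had a difference at least this far below 0. It remained a DEG in all 14 alternatives tried, with a difference between -1.36 and -1.07 and an adjusted P between 0.234 and 0.743. Its largest unadjusted P among them was 0.00499, from the limma fit with the variance of each gene on its own.

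HYAL1 (ENSSSCG00000011404, chromosome 13 from 32793569 to 32800796) codes for the lysosomal hyaluronidase. It was at 7.49, 5.38 and 11.5 FPKM in the sham minipigs and at 6.24, 6.25 and 7.67 FPKM in the DAC minipigs. All the DAC values lay within the sham range, which sham replicates 2 and 3 spanned. The log2 difference of HYAL1 was -0.19 (95% interval -0.75 to 0.37, adjusted P = 0.838 from limma), and 0.064 without sham replicate 3. HYAL3, a further hyaluronidase gene of the same cluster, did not pass the filter on FPKM. Its level was between 0.872 and 0.956 FPKM in the sham group and between 0.440 and 0.718 FPKM in the DAC group, which do not overlap, and with no filter its P was 0.0524. The listed positions of HYAL1, HYAL3 and IFRD2 overlap on the same strand, and the sources used here do not say how fragments in the shared stretch were assigned. The RefSeq gene HYAL1 on Sscrofa11.1 reaches only from 32798135 to 32800705. Whether the FPKM of HYAL1, and so its sum and ratio with HYAL2, include fragments from outside the RefSeq gene is not known. The position of HYAL2 overlaps no other listed gene.

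HYAL1 and HYAL2 together made up between 38.7 and 57.0 FPKM in the sham and between 18.6 and 26.1 FPKM in the DAC minipigs. HYAL2 provided 82.4% ± 3.32 (SD, n = 3) of this sum in the sham group and 69.3% ± 2.47 (SD, n = 3) in the DAC group. The ratio of HYAL2 to HYAL1 was 4.33, 6.20 and 3.94 in the sham minipigs and 1.98, 2.42 and 2.41 in the DAC minipigs, without overlap. A ratio within a sample does not depend on how the samples were scaled. This ratio and those that follow were set up after the values had been seen, and a two-sided exact permutation P over 6 minipigs cannot go below 0.10, which was its value here.

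CD44 (ENSSSCG00000013297, chromosome 2 from 25788704 to 25884153) codes for a transmembrane receptor of hyaluronan. Sham replicates 1, 2 and 3 had 4.46, 5.25 and 4.55 FPKM, and DAC replicates 4, 5 and 6 had 5.94, 6.77 and 6.56 FPKM. The nearest values of the groups were those of sham replicate 2 and DAC replicate 4. The mean rose by 35.0%, a log2 difference of 0.37 (standard error 0.11, 95% interval 0.11 to 0.62), with P = 0.0112 and adjusted P = 0.505 from limma and an exact permutation P of 0.10. CD44 remained a DEG in all 14 alternatives, with a difference between 0.33 and 0.43 and an unadjusted P of at most 0.0429. Its adjusted P from limma was between 0.455 and 0.893 among them. Its listed position overlaps that of SLC1A2 on the other strand. The FPKM of CD44 was 0.132 ± 0.0292 (SD, n = 3) of that of HYAL2 in the sham group and 0.429 ± 0.0651 (SD, n = 3) in the DAC group. This ratio was between 0.10 and 0.158 in the sham and between 0.356 and 0.482 in the DAC minipigs. Both genes already separated the groups, in opposite directions, so this ratio had to separate them too and adds no evidence.

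VCAN (ENSSSCG00000014136) codes for versican and is listed on chromosome 2 from 91358399 to 91811208, whereas the RefSeq gene of that name on Sscrofa11.1 starts at 91682177. Whether the FPKM listed for VCAN, and so its ratios to other genes, include fragments from outside the RefSeq gene is not known. It was at 4.03, 4.19 and 5.11 FPKM in the sham minipigs and at 4.20, 4.60 and 9.36 FPKM in the DAC minipigs. DAC replicate 6 stood apart, and the other DAC values lay within the sham range. The log2 difference was 0.31 (95% interval -0.31 to 0.92, adjusted P = 0.754 from limma), and -0.0066 without DAC replicate 6. The difference of VCAN was smaller than the spread between the minipigs, and its interval includes both a decrease and an increase.

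None of the 4 versican-cleaving proteases was a DEG. ADAMTS1 (ENSSSCG00000012026, chromosome 13 from 190276424 to 190286205), the most abundant of them per length, was at 17.8, 13.1 and 15.3 FPKM in the sham and at 14.0, 13.5 and 16.3 FPKM in the DAC minipigs. Its log2 difference was -0.064 (95% interval -0.39 to 0.27, adjusted P = 0.914 from limma). ADAMTS9 (ENSSSCG00000011496, chromosome 13 from 46034816 to 46207006) was at 6.84, 10.2 and 7.61 FPKM and at 6.80, 6.11 and 9.11 FPKM. The groups overlapped for both genes, and the difference of ADAMTS9 was -0.14 (95% interval -0.58 to 0.29, adjusted P = 0.848 from limma).

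ADAMTS5 (ENSSSCG00000012027, chromosome 13 from 190361449 to 190412949), a neighbour of ADAMTS1 on the same strand and also named aggrecanase, was at 3.73, 6.32 and 5.89 FPKM in the sham minipigs. In the DAC minipigs it was at 2.96, 4.67 and 5.46 FPKM, with a log2 difference of -0.24 (95% interval -0.79 to 0.31, adjusted P = 0.785 from limma). Without DAC replicate 4 this difference was -0.036, and without sham replicate 1 it was -0.43. The lowest values of the groups were those of sham replicate 1 and DAC replicate 4. ADAMTS4 (ENSSSCG00000006359, chromosome 4 from 89260460 to 89269245), the other aggrecanase of the set, had the lowest level of all members. It was at 3.52, 0.720 and 1.60 FPKM in the sham and at 0.508, 0.251 and 1.13 FPKM in the DAC minipigs. Only DAC replicate 6 was above the lowest sham value, that of sham replicate 2. The log2 difference of ADAMTS4 was -0.78 (standard error 0.36, 95% interval -1.63 to 0.073), with P = 0.0677 and adjusted P = 0.596 from limma and an exact permutation P of 0.20. On this scale the difference of such a low gene is understated: its means of 1.95 ± 1.43 and 0.631 ± 0.454 FPKM (SD, n = 3 each) were 3.09-fold apart, and with a pseudocount of 0.1 the log2 difference was -1.42 (adjusted P = 0.603 from limma). Without sham replicate 2, and with the pseudocount of 1, the difference was -1.11 (adjusted P = 0.468 from limma), and ADAMTS4 was then a DEG.

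Summed over the 4 proteases, the level was between 30.3 and 31.9 FPKM in the sham group, and 24.3, 24.5 and 32.0 FPKM in DAC replicates 4, 5 and 6. ADAMTS1 provided 49.8% ± 6.34 (SD, n = 3) of this sum in the sham group and 54.6% ± 3.40 (SD, n = 3) in the DAC group, and ADAMTS9 26.7% ± 6.23 and 27.1% ± 1.92. The share of ADAMTS5 was 17.3% ± 4.93 and 16.1% ± 3.51, and that of ADAMTS4 was 6.23% ± 4.41 and 2.22% ± 1.26. None of these shares separated the groups. The ratio of VCAN to the sum was 0.126, 0.138 and 0.168 in the sham minipigs and 0.173, 0.187 and 0.292 in the DAC minipigs. These ratios did not overlap, but the highest sham and the lowest DAC value lay close together (exact two-sided permutation P = 0.10).

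ADAMTSL4 (ENSSSCG00000006651, chromosome 4 from 98577820 to 98589175) was at 21.4, 10.5 and 11.5 FPKM in the sham and at 18.5, 9.66 and 14.4 FPKM in the DAC minipigs. Each group held both a high and a low minipig, and the log2 difference was -0.0043 (95% interval -0.73 to 0.72, adjusted P = 0.998 from limma). The width of this interval does not show that the groups were alike.

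**Figure D2:**
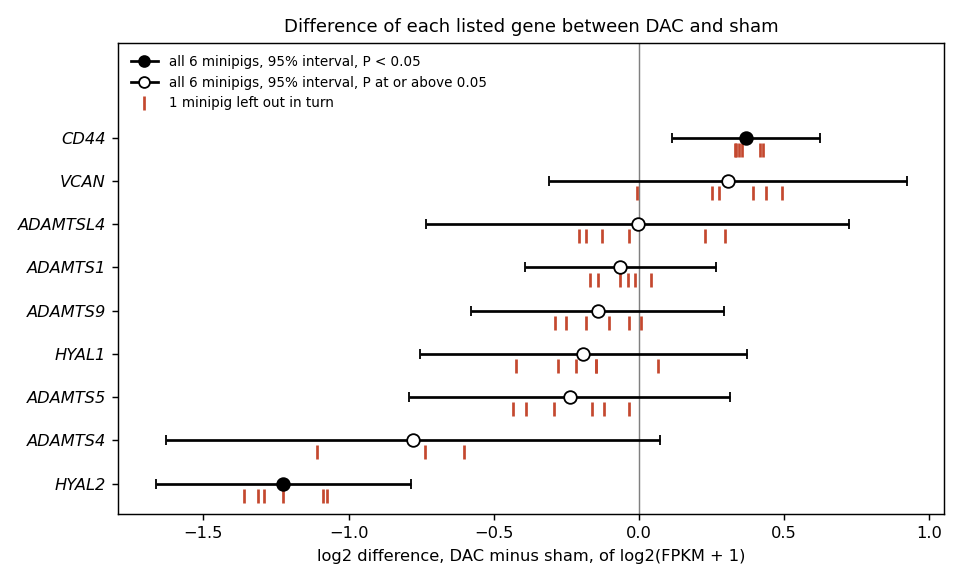
Log2 difference between DAC and sham (horizontal axis, log2 of FPKM + 1) of the 9 listed genes with the 95% interval of limma; filled circles have an unadjusted P under 0.05 and red ticks are the differences with 1 minipig left out in turn, of which ADAMTS4 has fewer because it then fell under the filter. The intervals of CD44 (0.11 to 0.62) and HYAL2 (-1.66 to -0.79) do not include 0, and the ticks of VCAN reach from -0.0066 to 0.49.

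In the sham group HYAL2 had the highest level per length of the members, without overlap with ADAMTS1, the next in order. ADAMTS1 and ADAMTSL4 (means of 15.4 and 14.5 FPKM) overlapped with each other. Every value of both lay above those of ADAMTS9 (8.20 FPKM), whereas HYAL1 (8.13 FPKM) overlapped with ADAMTS9 and, in sham replicate 3, reached the range of ADAMTSL4. ADAMTS5, CD44 and VCAN followed with means of 5.31, 4.76 and 4.44 FPKM, and each overlapped with its neighbour. ADAMTS4 was last at 1.95 FPKM. In the DAC group the range of HYAL2 overlapped with those of ADAMTS1 and ADAMTSL4, whose means were 14.6 and 14.2 FPKM. CD44 and VCAN (6.42 and 6.05 FPKM) then came before ADAMTS5 (4.36 FPKM), and ADAMTS4 was again last at 0.631 FPKM.

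**Figure D3:**
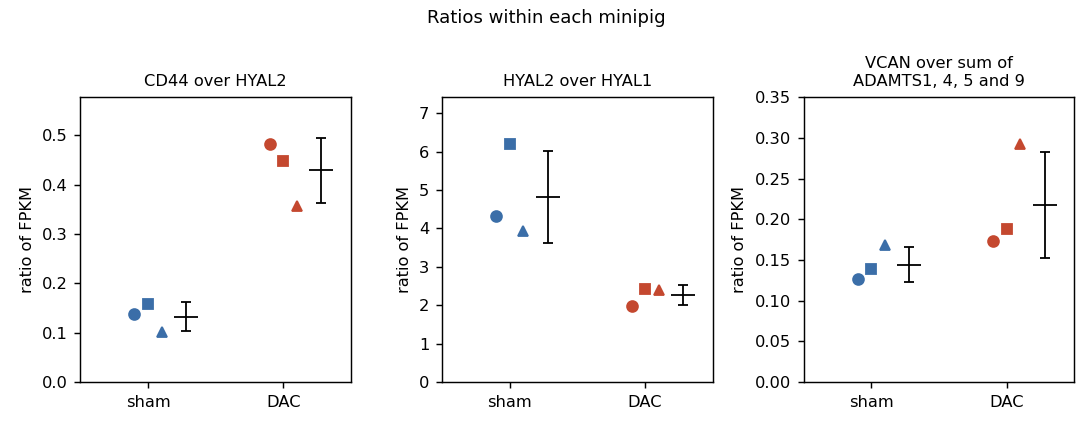
Ratios of FPKM within each minipig (vertical axes, starting at 0) for CD44 to HYAL2, HYAL2 to HYAL1, and VCAN to the sum of ADAMTS1, ADAMTS4, ADAMTS5 and ADAMTS9, with the mean and SD (n = 3) beside each group. The first ratio is between 0.10 and 0.158 in sham and between 0.356 and 0.482 in DAC minipigs, which follows from the separation of CD44 and of HYAL2. The third separates sham replicate 3 (0.168) from DAC replicate 4 (0.173) by little.

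Of the members, 5 lie on chromosome 13, where HYAL1 is next to HYAL2 and ADAMTS1 is next to ADAMTS5. The level of the genes around HYAL2 was compared after its own value had been seen. Within 100 kb of HYAL2, 10 further genes are listed and 7 were tested. The mean log2 value of 6 of the 7 was lower in the DAC group. Only that of SEMA3B was higher, where 46.6% of all tested genes had a higher one. Among the 7, the listed positions of HYAL1 and IFRD2 overlap on the same strand, so their values may not be separate. LSMEM2, which codes for a small membrane protein, was the 1 DEG among the 7, against 8.51% of all tested genes. LSMEM2 was at 25.9, 14.8 and 11.4 FPKM in the sham and at 11.6, 9.18 and 9.77 FPKM in the DAC minipigs (log2 difference -0.64, P = 0.0489 from limma, exact permutation P = 0.20), so that its groups overlapped. RASSF1, the nearest tested gene on the far side from HYAL1, had a difference of -0.45 (adjusted P = 0.651 from limma). The differences of the other tested neighbours, HYAL1 among them, were between -0.19 and 0.040, and none was as far from 0 as that of HYAL2.

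**Figure D4:**
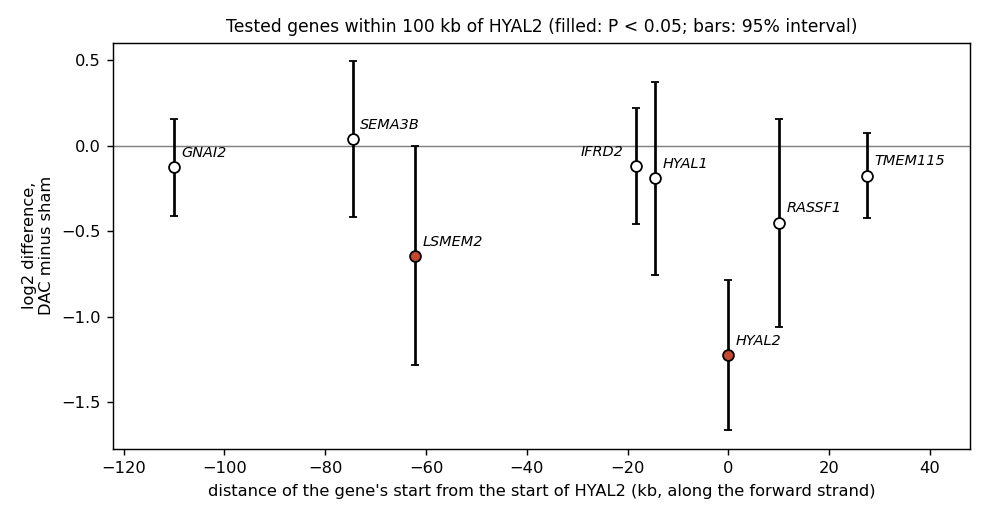
Log2 difference between DAC and sham (vertical axis) of the tested genes that reach within 100 kb of HYAL2, against the distance of their start from that of HYAL2 (horizontal axis, kb); bars are 95% intervals of limma, and filled points have an unadjusted P under 0.05. HYAL2 is at -1.22, LSMEM2 at -0.64, and the other 6 genes lie between -0.45 and 0.040 with intervals that include 0.

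The further genes of hyaluronan, versican and ADAMTS biology were given by 8 lists with 101 genes, of which 78 were listed and 64 tested. In the DAC group, 2 of the 64 were DEGs with a higher and 1 with a lower level, 4.69% in all against 8.51% of all tested genes. Their median log2 difference was 0.0045.

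Among 6 tested genes that supply hyaluronan synthesis with sugars, none was a DEG and the median difference was 0.097. HAS1 was not listed, and the synthase gene HAS3 was at or under 0.815 FPKM in every sample. UGDH, which makes the glucuronic acid donor, had the smallest P of this list (log2 difference 0.21, adjusted P = 0.754 from limma). It was between 4.45 and 4.72 FPKM in 5 minipigs and at 7.41 FPKM in DAC replicate 6. Of 6 tested genes for hyaluronan breakdown and clearance, none was a DEG either, and the median was -0.20. STAB1, related to the hyaluronan clearance receptor STAB2, had means of 11.2 ± 1.46 FPKM for sham and 8.97 ± 0.823 FPKM for DAC (SD, n = 3 each), a difference of -0.28 (adjusted P = 0.596 from limma).

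Hyaluronan-binding genes, hyalectans and link proteins had no DEG among 6 tested genes and a median of 0.011. The hyalectans ACAN, BCAN and NCAN were not listed, which leaves VCAN as the listed gene of that family. HAPLN3, a link protein that ties hyaluronan to proteoglycans, had the smallest P (difference 0.30, adjusted P = 0.735 from limma). Of the 6 tested genes that connect CD44 and related receptors with the cytoskeleton or lie at that junction, none was a DEG, and the median was 0.061. EZR, which codes for the linker ezrin, had means of 79.4 ± 2.54 FPKM for sham and 68.2 ± 1.76 FPKM for DAC (SD, n = 3 each), and its groups did not overlap. Its difference was -0.22, with P = 0.0503 from limma and an exact permutation P of 0.10. Groups without overlap were seen in 5 of the 64 tested genes of the 8 lists, against 14.9% of all tested genes. Of the 6 genes around CD44, 4 had a higher mean log2 value in the DAC group, among them MSN (0.34) and RDX (0.28). EZR was among the 2 with a lower one.

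Outside the members, 12 of 15 further ADAMTS proteases were listed and 6 tested. ADAMTS6 was a DEG, at 6.17, 5.71 and 5.26 FPKM in the sham and 8.06, 6.89 and 7.07 FPKM in the DAC minipigs. Its log2 difference was 0.31 (standard error 0.11), with P = 0.0245 and adjusted P = 0.553 from limma and an exact permutation P of 0.10, without overlap of the groups. The position of ADAMTS6 overlaps that of CENPK on the same strand. The median of the 6 genes was 0.033. All 6 further ADAMTS-like genes were tested with a median of -0.11 and no DEG, and ADAMTSL2 had the smallest P (difference 0.47, adjusted P = 0.615 from limma).

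Regulators and matrix partners of ADAMTS proteases and versican had 1 DEG among 10 tested genes and a median of 0.11. This was FN1, the fibronectin gene, at 26.8, 21.5 and 16.2 FPKM in the sham and 33.1, 45.2 and 51.0 FPKM in the DAC minipigs in turn. The log2 difference was 0.98 (standard error 0.22), with P = 0.0029 and adjusted P = 0.441 from limma and an exact permutation P of 0.10. Its mean was 2.0-fold that of the sham group, and the groups did not overlap. TIMP3, the tissue inhibitor of several ADAMTS proteases, was between 77.2 and 108 FPKM in the sham and between 74.0 and 115 FPKM in the DAC group. For the synthesis of chondroitin sulfate chains, 18 genes were tested and their median was -0.016. One was a DEG, B3GAT3, whose enzyme completes the linker on which the chains are built. B3GAT3 was at 15.2, 17.1 and 18.4 FPKM in the sham and 14.4, 10.9 and 13.9 FPKM in the DAC minipigs, a difference of -0.35 with P = 0.0371 and adjusted P = 0.581 from limma and an exact permutation P of 0.10.

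**Figure D5:**
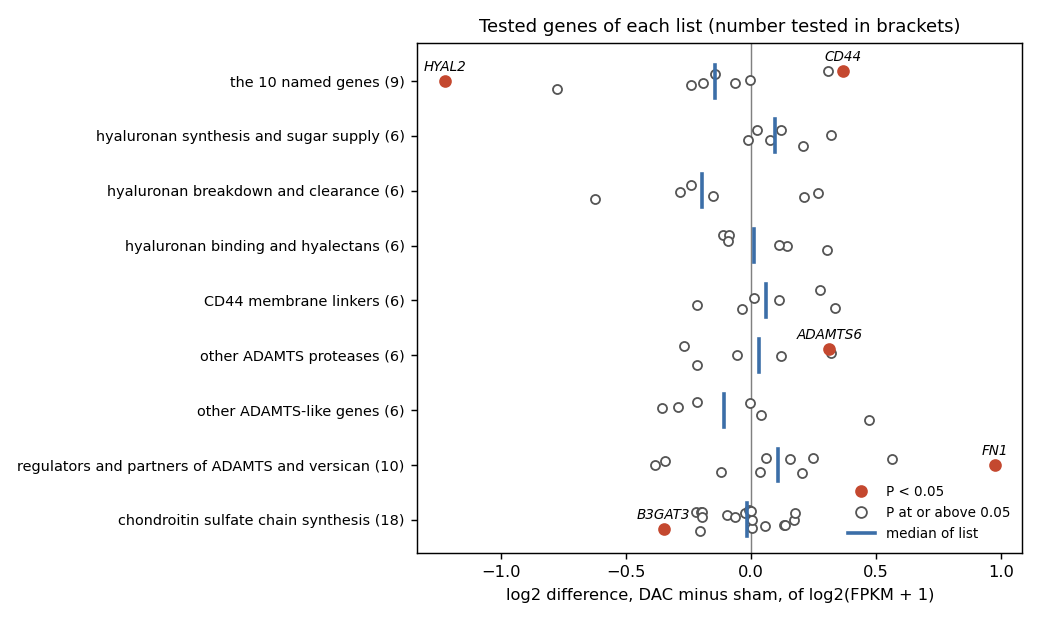
Log2 difference between DAC and sham (horizontal axis) of every tested gene of the 10 named genes and of the 8 further lists, with the number tested in brackets; red points have an unadjusted P under 0.05 in limma, and the blue line is the median of the list. The medians of the 8 further lists lie between -0.20 and 0.11, and 3 of their 64 genes (ADAMTS6, FN1 and B3GAT3) are red.

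Markers of the cell types of the ventricle were read beside these results, and their part in the differences of HYAL2 and CD44 was not tested. The summed level of 8 fibroblast markers was between 532 and 617 FPKM in the sham and between 743 and 847 FPKM in the DAC minipigs. Of these markers, COL1A1, COL1A2, COL3A1 and LUM were DEGs with a higher level. The means of the collagen genes COL1A1, COL1A2 and COL3A1 were 94.0, 73.3 and 173 FPKM for sham and 165, 110 and 238 FPKM for DAC. DCN (log2 difference -0.012), PDGFRA (0.24), DPT (0.080) and TCF21 (-0.022) were not DEGs, so the sum does not stand for all 8 markers alike. The sum of 8 endothelial markers was between 118 and 169 FPKM in the sham and between 112 and 160 FPKM in the DAC minipigs. CLDN5 (log2 difference -1.22) and VWF (-0.49) were lower and KDR (0.60) and EMCN (0.39) higher in the DAC group, all DEGs, while PECAM1, CDH5, TEK and TIE1 were not. Among these DEGs, the groups overlapped for KDR. Of the 7 tested leukocyte markers, CD163 was the 1 DEG (log2 difference -0.43). CD68 (0.50) and PTPRC (0.26) differed in the opposite direction without being DEGs, and their groups overlapped. A negative difference was seen for 5 leukocyte markers, CD163 included. The sum of the listed leukocyte markers was between 83.3 and 108 FPKM in the sham and between 78.4 and 135 FPKM in the DAC group.

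The 8 listed cardiomyocyte markers summed to between 14136 and 14876 FPKM in the sham and between 13518 and 16419 FPKM in the DAC minipigs, and RYR2 was a DEG with a lower level (-0.41). Smooth muscle and pericyte markers had 1 DEG among 7, CNN1 (0.60), whose groups overlapped. Their sums were between 152 and 185 FPKM in the sham and between 173 and 202 FPKM in the DAC minipigs. Of 6 mesothelial and epicardial markers, WT1 was tested and was a DEG (-1.23), KRT8 was at or under 0.737 FPKM, and MSLN, UPK3B, KRT18 and ITLN1 were not listed. Of the red blood cell markers HBB was tested (difference -0.12) and of the adipocyte markers PLIN4 (-0.39), and neither was a DEG. The sum was between 11.2 and 38.5 FPKM in the sham and between 5.86 and 38.2 FPKM in the DAC minipigs for red blood cell markers. For adipocyte markers it was between 23.3 and 39.4 FPKM and between 21.0 and 24.8 FPKM.

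Genes whose levels ran closest to those of a member over the 6 samples were sought among all tested genes by the root mean square difference of log2(FPKM + 1), each gene centred on its own mean. For CD44 they included ECM2, a gene of a matrix protein, and LMO7, with differences of 0.038 and 0.057, where CD44 itself spanned 0.51. For VCAN they were SLA-DQB1, GALNT18 and IL16, with 0.097, 0.10 and 0.11 against a span of 1.04. ELFN2, TWNK and RFNG ran closest to ADAMTS4, the ADAMTS member with the smallest P, with 0.13, 0.20 and 0.22 against a span of 1.85. HYAL2 was added to this search after its values had been seen, and TMCC3, UBE2D1 and SEPTIN9 ran closest to it with 0.083, 0.16 and 0.18 against a span of 1.80. TMCC3 was at 3.37, 3.25 and 4.93 FPKM in the sham and at 0.917, 1.33 and 1.61 FPKM in the DAC minipigs, so that sham replicate 3 was the highest for both genes. The positions of ECM2, SLA-DQB1, TWNK, RFNG and UBE2D1 overlap those of other listed genes. This likeness over 6 samples is a description and carries no test.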

How the data were processed

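RNA of ventricular tissue from 3 sham and 3 DAC minipigs was measured, 1 column per minipig. The authors deposited 1 table of FPKM with gene symbols and positions. The NEBNext Ultra kit was used for paired-end libraries, and whether counting used strand is not stated. The submitters' processing notes name HISAT2 and susScr11, and the quantification program is not given in the sources used here. The highest sample of each listed gene has at least 0.500 FPKM. Of 9 listed members, 9 overlap the RefSeq position on Sscrofa11.1. A further 520 symbols were filled from gene identifiers. No steps of whole reads were seen, since at most 6 of at least 3459 low genes shared a ratio between 2 samples, so depth is unknown and precision is given by the spread between minipigs.

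A pseudocount of 1 was added, and log2 values were compared with limma 3.58.1 in R 4.3.3 (moderated test with a mean-variance trend, two-sided), with Benjamini-Hochberg adjustment over all 11029 genes tested. In 1 simulated table of 11029 genes, with normal noise drawn from the variances of the limma fit, 197 of 200 genes given a log2 change of 1 were called. Of the unchanged genes, 4.65% were called. Smaller changes, such as that of CD44, were not simulated. Figures used Python 3.11.15 and matplotlib 3.10.9. No batch is named in the labels. Alternatives were sample weights, unmoderated variances, a pseudocount of 0.1, quantile normalization, median scaling, removal of mitochondrially encoded genes, a minimum of 5 FPKM or none, and each minipig left out in turn with the filter of 3 samples kept.

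The text names the 10 members. In each of the 8 further lists (hyaluronan synthesis and sugar supply, hyaluronan breakdown and clearance, hyaluronan binding and hyalectans, CD44 membrane linkers, other ADAMTS proteases, other ADAMTS-like genes, regulators and partners of ADAMTS and versican, chondroitin sulfate chain synthesis) it names the DEGs or, with none, the gene with the smallest P. It also names the 3 genes closest in level to CD44, VCAN and the ADAMTS member with the smallest P, of which some items are not reported here. Another 8 lists held markers of cell types. The members and lists were chosen with earlier results of these data known.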

Additional observations from a re-analysis of the deposited data

How the results depend on the processing

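The 2 DEGs among the members, HYAL2 and CD44, were DEGs under each of the 14 alternatives, and the number of members called was 2 under all of them except without sham replicate 2, where it was 3 with ADAMTS4. With a minimum of 5 FPKM, 579 of 6271 genes tested were DEGs, where fewer genes were tested. With 1 minipig left out in turn the number was between 595 of 10896 (without sham replicate 1) and 1019 of 10905 (without sham replicate 2), with 625 of 10894 without sham replicate 3, and the number of members called was between 2 and 3. The cause of the changes with single minipigs was not tested. Of the differences of single members under the alternatives, 110 kept their sign and their side of the threshold 10 turned their sign, and that of ADAMTS4 passed the threshold in 1. The difference of ADAMTSL4 (-0.0043) was 0.018 after median scaling, 0.045 after quantile normalization, 0.037 with mitochondrially encoded genes left out and 0.0048 with sample weights. With 1 minipig left out, it was between -0.21 and 0.30 for ADAMTSL4, between -0.42 and 0.064 for HYAL1, between -0.0066 and 0.49 for VCAN, between -0.17 and 0.042 for ADAMTS1, between -0.43 and -0.036 for ADAMTS5 and between -0.29 and 0.0055 for ADAMTS9. VCAN could not be tested with a minimum of 5 FPKM, nor ADAMTS4 there or without sham replicate 1, sham replicate 3 or DAC replicate 6, because they fell under the filter. The smallest adjusted P over all genes was 0.0276 without DAC replicate 6. No paired analysis was made, because the minipigs were allotted to sham or DAC at random and the labels name no pairs. The depth is unknown, and members of low FPKM such as ADAMTS4 can carry counting error that these values do not show.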

Other observations

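DAC replicate 6, whose VCAN level stood apart, also had the highest value of the 6 minipigs in 22 of the 73 tested members and pathway genes (30.1%), against 17.6% of all tested genes. This was noticed after the values had been seen, and no test was made. UGDH was at 7.41 FPKM there and at most at 4.72 FPKM in the other minipigs. GFPT2, an enzyme of the hexosamine pathway that supplies the other sugar of hyaluronan, was at 4.44 FPKM there and between 0.539 and 1.79 FPKM elsewhere. The link protein gene HAPLN3 was at 12.5 FPKM against at most 9.02 FPKM, and TNFAIP6, whose product moves heavy chains onto hyaluronan, was at 2.42 FPKM against at most 1.08 FPKM. The fibrillin gene FBN1 was at 74.7 FPKM in that minipig and between 30.3 and 43.0 FPKM in the others. ADAMTS2 was at 7.23 FPKM there against at most 5.61 FPKM. Outside the 73 genes, the fibroblast marker DCN was at 218 FPKM there against at most 158 FPKM. The fibroblast markers COL3A1, PDGFRA, TCF21 and DPT were also highest in DAC replicate 6, while COL1A1, COL1A2 and LUM were not.

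Sham replicate 1 had the highest value for ADAMTS1, ADAMTS4, ADAMTSL4 and FURIN, a protease that removes the propeptide of ADAMTS enzymes. FURIN was at 29.4 FPKM there and between 16.5 and 24.5 FPKM in the other minipigs, and its groups were not separated (adjusted P = 0.592 from limma). Over all members and pathway genes, sham replicate 1 was highest in 11 of 73 (15.1%), against 19.2% of all tested genes.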
